A study of Mus musculus with 8 samples.

Results

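Nearly all proteins of the mitochondrion are made in the cytosol and must be imported. The genes described here encode the mitochondrial protein import machinery, and their transcripts were measured in mouse satellite cells, the stem cells of skeletal muscle. Members were all array probes whose gene name starts with Timm or Tomm and a digit, plus those named Pmpca, Pmpcb, Grpel1, Grpel2, Samm50, Mtx1, Mtx2, Pam16, Immt, Chchd4 or Oxa1l. The name Timmdc1 was also searched for, and no probe carried it. This gave 49 probes for 33 genes, out of 55681 probes and 21748 named genes on the array. Satellite cells were sorted from muscle treated 3 days earlier with cardiotoxin, a venom protein that kills muscle fibres but spares many satellite cells (injured, n = 4 arrays), or from uninjured muscle (basal, n = 4 arrays). Both groups were labelled as male C57BL/6 mice aged 3 months, with no transgene or mutation named. The sort kept cells positive for integrin α7 and removed cells with CD31, CD45, CD11b or Sca1. Each sample was labelled with Cy3 and read on 1 single-colour Agilent array, and the labels call the samples biological replicates without saying whether animals were pooled. The p-values therefore measure the spread between these arrays.

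A precursor protein enters through the TOM complex of the outer membrane, where receptors bind its targeting signal and pass it to a common pore. From there the routes part. Precursors with a cleavable presequence cross the inner membrane through the TIM23 translocase, are pulled inside by an Hsp70 motor and lose the presequence to a matrix peptidase. Carriers of the inner membrane are escorted by small TIM chaperones to the TIM22 translocase, β-barrel proteins go to the SAM complex of the outer membrane, and small cysteine-rich proteins are trapped in the intermembrane space by a disulfide relay. In muscle stem cells, leaving quiescence is known to go with growth of the mitochondrial network.

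Signals are given on a log2 scale relative to the 75th percentile of each array, which was 104 to 132 intensity units, and 50.1% to 56.7% of spots were well above background. A gene was represented by its brightest probe, tested if that probe stood well above background on 3 or more of the 4 arrays of either group, and called at an adjusted p under 0.05 (limma with Benjamini-Hochberg adjustment over all 13642 genes tested). Differences are injured minus basal and errors are SE with n = 4 arrays per group unless named otherwise. The 4 injured arrays sat on 1 slide and the 4 basal arrays on a second, each scanned on its own, so that slide, scan and injury cannot be told apart. Injured 2, 3 and 4 also read high for Xist, the RNA that silences an X chromosome in females (6.37, 6.55 and 6.57), with every Y-linked gene checked at background, against their label as male. Xist was at 1.72 on injured 1, and at 3.85, 2.15, -1.12 and -4.97 on basal 1 to 4. On injured 2, 3 and 4, sex and injury thus cannot be told apart. In the sorted bulk RNA, fewer cells of a type and less RNA per cell cannot be told apart.

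Of the 33 import genes, 30 were tested, and each of these was above background on all 8 arrays, so none was tested through the group in which it was high. Among the 30, 26 were higher in injured than in basal satellite cells, where 35.3% of all tested genes were higher. Only Tomm34 was lower, where 24.8% of all tested genes were lower. Tomm6, Timm9 and Oxa1l were not called. Tomm20l, Tomm40l and Timm8a2 were too dim to be tested. The median difference of the tested import genes was 1.54 on the log2 scale, against 0.17 over all genes tested. All 4 injured arrays lay above all 4 basal arrays for 25 import genes, where this held for 33.9% of all tested genes, and below them for Tomm34, where it held for 23.3%. A call higher with a difference of at least 1 was made for 23 import genes, where it was made for 20.4% of all tested genes. Injured 1 was the injured array with Y-linked signal above background. With it as the sole injured array the median was 1.58, against 0.17 over all genes tested, and fewer import genes were called.

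**Figure D1:**
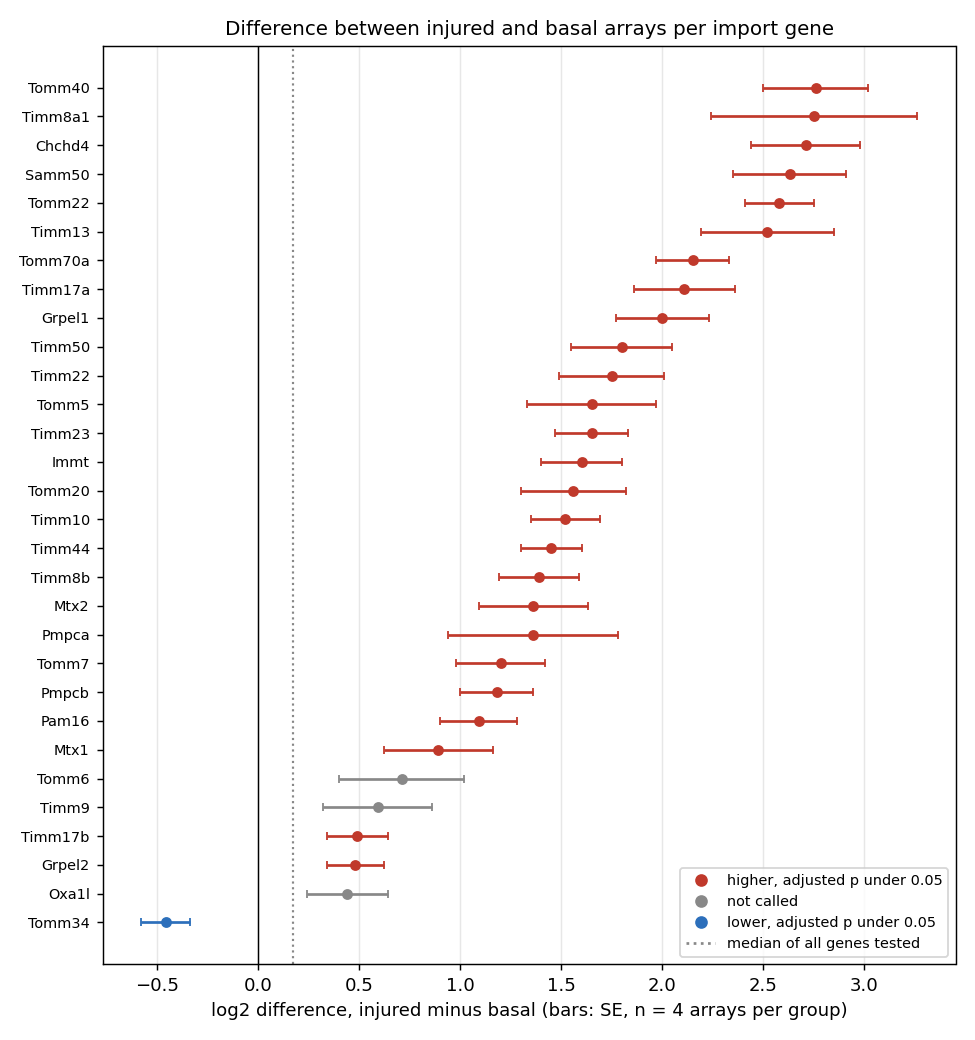
Log2 difference, injured minus basal, of the 30 import genes tested (points) with SE (bars, n = 4 arrays per group), coloured by call. The points run from 2.76 for Tomm40 to -0.46 for Tomm34, the gene called lower, whose direction turned in the authors' deposited table, and the dotted line marks the median of all genes tested, 0.17.

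Promoters of 5 import genes are shown first, since these hold the letters of factors known to bind promoters of nuclear genes for mitochondrial proteins. They come from RefSeq on the build GRCm38.p6 and run from 250 bases before to 50 bases after the annotated start. Capitals mark matches on either strand to the core of the NRF1 motif (CGCNTGCG), to the ETS motif (CCGGAAG, or CTTCCGG on the other strand), which factors such as GABP bind, and to the E-box (CACGTG).
Tomm20: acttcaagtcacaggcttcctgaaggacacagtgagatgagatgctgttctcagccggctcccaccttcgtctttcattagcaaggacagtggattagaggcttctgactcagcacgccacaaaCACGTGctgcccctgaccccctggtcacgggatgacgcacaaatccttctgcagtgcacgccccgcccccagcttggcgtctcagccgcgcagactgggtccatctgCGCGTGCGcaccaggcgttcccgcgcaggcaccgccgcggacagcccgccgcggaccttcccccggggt
Tomm22: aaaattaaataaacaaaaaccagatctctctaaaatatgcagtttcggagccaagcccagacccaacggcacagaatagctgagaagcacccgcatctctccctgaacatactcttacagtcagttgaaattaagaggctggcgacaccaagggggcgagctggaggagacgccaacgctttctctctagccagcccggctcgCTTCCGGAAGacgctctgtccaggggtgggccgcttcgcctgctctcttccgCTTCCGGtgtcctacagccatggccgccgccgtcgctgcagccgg
Immt: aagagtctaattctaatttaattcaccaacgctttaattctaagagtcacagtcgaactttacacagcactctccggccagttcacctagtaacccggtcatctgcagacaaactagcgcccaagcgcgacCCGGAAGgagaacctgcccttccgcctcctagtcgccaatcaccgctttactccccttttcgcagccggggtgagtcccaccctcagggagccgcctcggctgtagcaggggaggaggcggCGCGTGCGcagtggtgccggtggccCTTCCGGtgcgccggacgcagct
Chchd4: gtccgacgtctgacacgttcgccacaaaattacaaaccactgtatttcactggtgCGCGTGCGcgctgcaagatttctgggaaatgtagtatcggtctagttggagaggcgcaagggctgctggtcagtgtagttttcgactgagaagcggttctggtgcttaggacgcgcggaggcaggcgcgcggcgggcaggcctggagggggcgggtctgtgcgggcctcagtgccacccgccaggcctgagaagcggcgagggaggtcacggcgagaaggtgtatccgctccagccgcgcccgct
Timm8b: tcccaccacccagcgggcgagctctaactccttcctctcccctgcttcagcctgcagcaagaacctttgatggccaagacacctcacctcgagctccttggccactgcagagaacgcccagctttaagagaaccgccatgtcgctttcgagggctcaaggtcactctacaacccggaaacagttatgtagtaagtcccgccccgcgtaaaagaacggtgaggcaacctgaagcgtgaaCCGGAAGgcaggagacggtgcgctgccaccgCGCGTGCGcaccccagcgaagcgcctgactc
The windows lie at chr8:126945872-126946171 (minus strand) for Tomm20, chr15:79670618-79670917 (plus strand) for Tomm22, chr6:71831070-71831369 (plus strand) for Immt, chr6:91473374-91473673 (minus strand) for Chchd4 and chr9:50603651-50603950 (plus strand) for Timm8b. Relative to the start, the Tomm20 promoter has its NRF1 match at -19 to -12 and an E-box at -126 to -121. Tomm22 has ETS matches in both orientations that overlap, at -47 to -41 and -44 to -38, and another at 6 to 12, and no NRF1 match. Immt and Timm8b hold both kinds, with the NRF1 match just after the start, at 3 to 10 in Immt and 20 to 27 in Timm8b. Chchd4 has its NRF1 match farther upstream, at -195 to -188.

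A promoter was found for 30 of the 33 import genes. The ETS motif was in 13 of the 30 (43.3%), and in 9.93% of the promoters of 27025 genes. The NRF1 core was in 8 (26.7%), and in 9.22% of all. At least 1 of the pair was in 19 import promoters (63.3%), and in 17.3% of all. Of the 5 import genes with the largest rises, Tomm40, Timm8a1 and Samm50 had neither. Chchd4 had the NRF1 core and Tomm22 the ETS motif. The YY1 motif (AAGATGGCG) was in the promoters of Mtx1, Oxa1l and Timm50 (10%), and in 1.64% of all, and the E-box was in 5 (16.7%), and in 8.09% of all. Among the 24 import genes called higher that have a promoter here, 11 hold the ETS motif and 7 the NRF1 core. The promoter of Tomm34, which was lower except in the authors' deposited table, also holds the ETS motif. The shares of all cover every gene with a promoter, tested on these arrays or not, so they are no matched background for the import genes. No test of motif against call was made. A match is a description of the letters and not a measured site.

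The receptors and the pore of the TOM complex all rose, by a median of 2.37 on the log2 scale. Tomm40, the β-barrel pore itself, read 4.37, 4.4, 4.19 and 4.03 on injured arrays 1 to 4, against 2.15, 1.70, 0.98 and 1.14 on basal arrays 1 to 4. The injured arrays lay close together and well above the highest basal array. Its difference of 2.76 ± 0.26 (adjusted p = 6.04e-05, a 6.75-fold higher signal) was the largest of the import genes. Tomm22, the central receptor that holds the complex together, read 1.85, 1.84, 1.68 and 1.58 in injured cells, against -0.44, -0.78, -0.95 and -1.19 in basal cells. The gap between the groups was wide relative to the spread within either, and the difference was 2.58 ± 0.17 (adjusted p = 1.42e-05), the smallest adjusted p among the import genes.

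Tomm70a, the receptor for carriers and other precursors delivered by cytosolic chaperones, read 0.66, 0.72, 0.76 and 0.41 in injured cells, against -1.29, -1.38, -2.01 and -1.38 in basal cells. The groups did not overlap, and the difference was 2.15 ± 0.18 (adjusted p = 4.11e-05). Tomm20, the presequence receptor, read 3.32, 3.41, 3.34 and 3.05 in injured cells, against 2.41, 1.91, 1.30 and 1.23 in basal cells. Basal 1 and 2 were the basal arrays nearest to the injured ones, and the difference was 1.56 ± 0.26 (adjusted p = 0.00109). With injured 1 as the sole injured array it was 1.61 and not called (adjusted p = 0.0962).

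Tomm20 had a pair of tested probes that the array places at the same position, chr8:129458446-129458505 of the mouse build mm9. They are shown because they read the same gene through different letters. Their first 24 bases are:
RefSeq transcript probe: gtgtttgtgaaaGctgCgcattaa
cDNA clone probe: gtgtttgtgaaaActgAgcattaa
Capitals mark the bases that differ. Over the 60 bases the clone probe differs from the transcript probe at G13A, C17A and A57G, counted from 1 at the 5′ end. The transcript probe read 2.55, 2.59, 2.52 and 2.02 in injured cells, against 1.30, 0.79, 0.12 and 0.05 in basal cells, a difference of 1.85 ± 0.29. The clone probe, which stands for the gene here, gave 1.56 ± 0.26, and both were called higher over all 31313 probes tested (adjusted p = 0.000868 and 0.00122).

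Among the small subunits that stabilise the TOM pore, Tomm5 read 4.77, 4.85, 4.89 and 4.54 in injured cells, against 4.08, 3.25, 2.63 and 2.52 in basal cells, and rose by 1.65 ± 0.32 (adjusted p = 0.00242). Tomm7 read 5.47, 5.43, 5.42 and 5.11 in injured cells, against 4.73, 4.26, 3.78 and 3.88 in basal cells, and rose by 1.2 ± 0.22 (adjusted p = 0.00168). The groups did not overlap for either gene, and in the authors' deposited table Tomm7 was not called (0.95, adjusted p = 0.0702). In that table the columns of basal 2, 3 and 4 correlate with their own arrays at r = 0.757, 0.67 and 0.563, against 0.84 or more for the other arrays. Tomm6 was not called (0.71 ± 0.31, adjusted p = 0.0764): it read 2.05, 2.11, 2.06 and 1.99 in injured cells, against 2.10, 1.74, 0.95 and 0.58 in basal cells. Basal 1 reached the injured level, so leaving it out was bound to widen the difference (0.96, adjusted p = 0.0126). Without basal 3 the Tomm6 difference was 0.58 (adjusted p = 0.168), and without basal 4 it was 0.45 (adjusted p = 0.161). Of the TOM paralogues, Tomm40l, a second form of the pore, was above background on injured 1 alone, at -1.21, and Tomm20l, a relative of the receptor Tomm20, on 1 injured and 2 basal arrays.

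Tomm34, a cytosolic co-chaperone of Hsp70 and Hsp90 rather than a part of the translocase, went the other way. It read 3.37, 3.48, 3.15 and 3.39 in injured cells, against 3.80, 3.75, 3.73 and 3.93 in basal cells. The groups did not overlap, and the difference was -0.46 ± 0.12 (adjusted p = 0.011), but the authors' deposited table gave 0.73 and no call (adjusted p = 0.224), against a median of 0.47 over all genes there. It was also not called with injured 1 as the sole injured array (-0.44, adjusted p = 0.268).

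**Figure D2:**
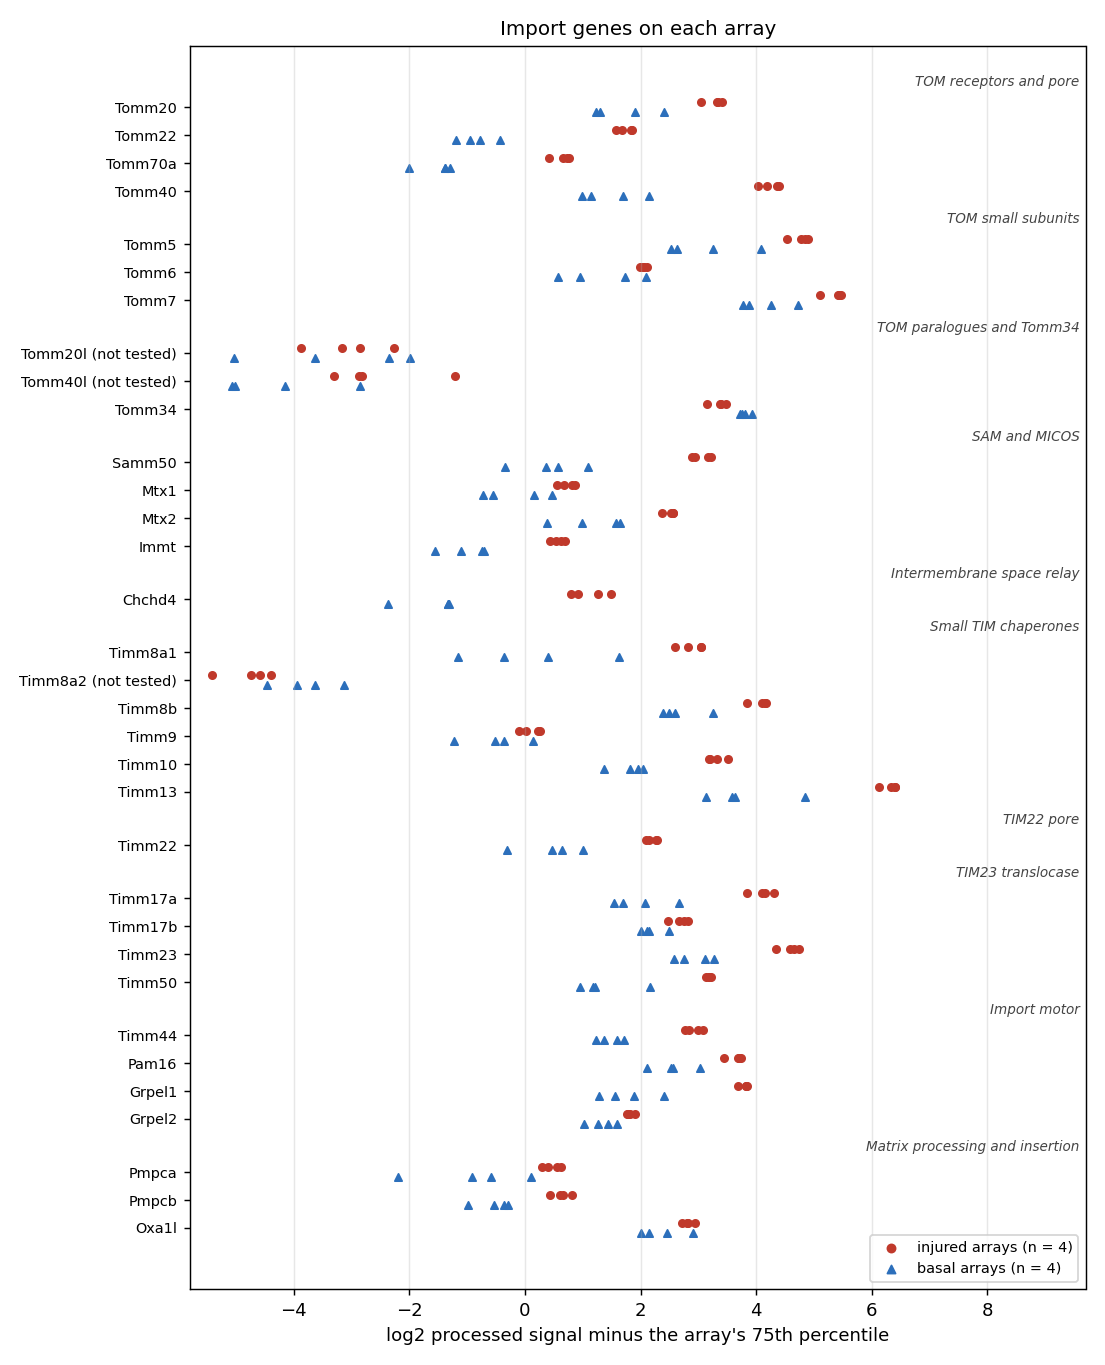
Signal of the brightest probe of each import gene on every array, as log2 processed signal minus the array's 75th percentile, with 4 injured arrays (circles) above 4 basal arrays (triangles) in each row and genes grouped by role. Injured circles sit to the right of all basal triangles for 25 genes, as for Tomm22 (1.58 to 1.85 against -1.19 to -0.44), and to their left for Tomm34, whose direction turned in the authors' deposited table. Positions of different genes are not comparable, since each probe has its own brightness.

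The outer membrane insertion machinery and the MICOS organiser of inner membrane cristae were also higher, 4 of 4 genes with a median difference of 1.48. Samm50, the channel that inserts β-barrel proteins, read 3.22, 3.16, 2.94 and 2.89 in injured cells, against 1.09, 0.37, -0.35 and 0.57 in basal cells. No basal array came near the injured range, and the difference was 2.63 ± 0.28 (adjusted p = 0.000109). Its partners at the outer membrane, the metaxins, rose less: Mtx2 by 1.36 ± 0.27 (adjusted p = 0.00244) and Mtx1 by 0.89 ± 0.27 (adjusted p = 0.0182). Mtx1 read 0.81, 0.87, 0.56 and 0.67 in injured cells, against 0.47, 0.15, -0.73 and -0.55 in basal cells, so that basal 1 lay just under the injured range. Without basal 1 and 2 together, its highest basal arrays, the difference was 1.37 (adjusted p = 0.00024), and without basal 3 it was 0.70 (adjusted p = 0.0391). Immt, the core subunit of MICOS, whose promoter holds both motifs, rose by 1.60 ± 0.20 (adjusted p = 0.000239), and its arrays read 0.43 to 0.69 in injured cells, against -1.55 to -0.70 in basal cells.

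In the intermembrane space, Chchd4, the oxidoreductase of the disulfide relay, read 1.27, 1.49, 0.91 and 0.80 in injured cells, against -1.32, -1.34, -2.37 and -1.33 in basal cells. The groups were far apart, with basal 3 below the other basal arrays, and the difference was 2.71 ± 0.27 (adjusted p = 8.9e-05). Of 6 small TIM genes, whose products are folded by that relay and chaperone hydrophobic precursors, 5 were tested and 4 rose, with a median of 1.52 over the 5. The X-linked Timm8a1 read 3.05, 3.05, 2.82 and 2.60 in injured cells, against 1.63, 0.40, -1.15 and -0.36 in basal cells. Its basal arrays were widely spread (SD 1.18, n = 4), yet all lay below the injured ones, and the difference was 2.75 ± 0.51 (adjusted p = 0.00189). With injured 1 as the sole injured array it was 2.92 and not called (adjusted p = 0.109).

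Timm13, which pairs with Timm8 proteins in 1 of the chaperone complexes, read 6.41, 6.40, 6.34 and 6.13 in injured cells, against 4.84, 3.58, 3.13 and 3.64 in basal cells, a difference of 2.52 ± 0.33 (adjusted p = 0.000293). Timm8b read 4.16, 4.17, 4.10 and 3.84 in injured cells, against 3.25, 2.50, 2.39 and 2.59 in basal cells, a difference of 1.39 ± 0.20 (adjusted p = 0.000504). In both genes basal 1 was the highest basal array and still below the injured ones. Timm10, a subunit of the other complex, read 3.32, 3.52, 3.18 and 3.21 in injured cells, against 2.04, 1.95, 1.36 and 1.81 in basal cells, and rose by 1.52 ± 0.17 (adjusted p = 0.000162). Its partner Timm9 was not called (0.59 ± 0.27, adjusted p = 0.0853), at -0.11, 0.02, 0.26 and 0.23 in injured cells, against 0.14, -0.52, -1.23 and -0.37 in basal cells. Basal 1 lay inside the injured range there, and without it the difference was 0.80 and called (adjusted p = 0.0154). Without basal 3 it was 0.35 (adjusted p = 0.161). Timm8a2, a paralogue of Timm8a1, was not well above background on any array, at -5.41, -4.58, -4.39 and -4.74 in injured cells, against -3.95, -3.13, -4.46 and -3.64 in basal cells. Timm22, the channel that receives carriers from these chaperones, rose by 1.75 ± 0.26 (adjusted p = 0.000542), and its arrays read 2.10 to 2.28 in injured cells, against -0.31 to 1.01 in basal cells.

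All 4 member genes for subunits of the TIM23 translocase rose, by a median of 1.72. Timm23, the channel subunit, read 4.65, 4.74, 4.59 and 4.34 in injured cells, against 3.28, 3.11, 2.58 and 2.75 in basal cells, a difference of 1.65 ± 0.18 (adjusted p = 0.000134). Timm50, the receptor that meets precursors as they leave TOM, read 3.22, 3.18, 3.18 and 3.13 in injured cells, against 2.16, 1.18, 1.22 and 0.95 in basal cells, a difference of 1.80 ± 0.25 (adjusted p = 0.00038). Injured arrays nearly coincided for Timm50, while basal 1 stood above the other basal arrays. Timm17a, a partner of Timm23 in the membrane, read 4.15, 4.31, 4.10 and 3.84 in injured cells, against 2.67, 2.07, 1.54 and 1.69 in basal cells, a difference of 2.11 ± 0.25 (adjusted p = 0.00018). Its X-linked paralogue Timm17b read 2.67, 2.76, 2.82 and 2.47 in injured cells, against 2.49, 2.14, 2.11 and 2.00 in basal cells. These groups overlapped by basal 1 and injured 4, and the smaller difference of 0.49 ± 0.15 (adjusted p = 0.0187) was not called with quantile normalization (0.27, adjusted p = 0.113), without injured 2 (0.46, adjusted p = 0.0529) or without injured 3 (0.45, adjusted p = 0.0567). In the authors' deposited table it was 1.75 (adjusted p = 0.0322).

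The motor that pulls precursors into the matrix was higher as well, 4 of 4 genes with a median of 1.27. Timm44, which tethers the Hsp70 motor to the translocase, rose by 1.45 ± 0.15 (adjusted p = 8.83e-05). Pam16, a regulator of the motor's J proteins, rose by 1.09 ± 0.19 (adjusted p = 0.00144). In the authors' deposited table neither passed the test (1.22, adjusted p = 0.127 for Timm44 and 0.78, adjusted p = 0.132 for Pam16). Grpel1, a nucleotide exchange factor of the motor, rose by 2.00 ± 0.23 (adjusted p = 0.000159), with 3.68 to 3.85 in injured cells, against 1.29 to 2.41 in basal cells. Grpel2, the second such factor, rose by 0.48 ± 0.14 (adjusted p = 0.0188), with 1.76 to 1.91 in injured cells, against 1.03 to 1.60 in basal cells. Grpel2's call was lost with quantile normalization (0.33, adjusted p = 0.067), with normexp and quantile normalization (0.24, adjusted p = 0.0761), in the authors' deposited table (0.31, adjusted p = 0.437), with the mean of both its probes (0.51, adjusted p = 0.214) and without injured 3 (0.45, adjusted p = 0.0542). Its second probe, which enters that mean, was above background on only 1 injured and 1 basal array.

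Inside the matrix, both subunits of the peptidase that removes presequences rose, Pmpcb by 1.18 ± 0.18 (adjusted p = 0.00061) and Pmpca by 1.36 ± 0.42 (adjusted p = 0.0207). Pmpca read 0.62, 0.30, 0.55 and 0.40 in injured cells, against -2.19, 0.11, -0.91 and -0.59 in basal cells. For Pmpca basal 1, elsewhere usually the highest basal array, was the lowest, and without injured 1 the call was lost (1.31, adjusted p = 0.0511). Oxa1l, the insertase that places proteins into the inner membrane from the matrix side, was not called (0.44 ± 0.20, adjusted p = 0.0853). It read 2.82, 2.71, 2.94 and 2.80 in injured cells, against 2.45, 2.91, 2.00 and 2.14 in basal cells. Basal 2 overlapped the injured arrays, so leaving it out was bound to widen the difference (0.62, adjusted p = 0.0094). Without basal 3 the Oxa1l difference was 0.32 (adjusted p = 0.192).

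In some of the gene pairs tested, the genes changed by unequal amounts, and not every such difference held under each alternative. For each pair the log2 difference between the genes was taken within each array and compared between the groups with a two-sided exact permutation test, whose smallest possible p with 4 against 4 arrays is 0.0286. Of 10 pairs, 8 could be tested, and p-values were adjusted over these 8. The Timm17a minus Timm17b difference was 1.62 ± 0.17 higher in injured than in basal cells, Grpel1 minus Grpel2 was 1.52 ± 0.13 higher, and Timm8a1 minus Timm8b was 1.36 ± 0.43 higher. Timm10 minus Timm10b was 0.88 ± 0.20 higher (Timm10b is printed as Fxc1 on the array and so is not a member), and Tomm70a minus Tomm34 was 2.61 ± 0.19 higher. The metaxins went the other way, with Mtx1 minus Mtx2 at -0.47 ± 0.12. Each of these 6 pairs separated the groups fully (exact p = 0.0286, adjusted 0.0381), which is the same outcome as the smallest possible p. Among single genes tested, 33.9% separated fully upward and 23.3% downward. The share among other gene pairs was not taken, so the count of 6 has no background. Timm50 minus Timm44 differed by 0.35 ± 0.21 (exact p = 0.2, adjusted 0.229) and Pmpca minus Pmpcb by 0.19 ± 0.54 (exact p = 0.943, adjusted 0.943), whose wide error leaves room for a difference in either direction. When all probes of each gene were averaged, 3 pairs missed the threshold: Timm8a1 minus Timm8b (0.85, exact p = 0.143), Timm10 minus Timm10b (0.67, exact p = 0.114) and Grpel1 minus Grpel2 (0.47, exact p = 0.286). For Grpel1 that mean takes in a probe not above background on any array. For Grpel2 it takes in a probe above background on only 1 injured and 1 basal array. Timm8a1 minus Timm8b and Mtx1 minus Mtx2 also missed the threshold whichever injured array was left out, as did Timm10 minus Timm10b without injured 2 or 3 (exact p = 0.0571 each). The pairs were not tested in the authors' deposited table. There Mtx1 rose by 1.95 and Mtx2 by 1.29, the reverse of their order here. The order was kept for Timm17a and Timm17b (2.21 and 1.75) and for Tomm70a and Tomm34 (1.52 and 0.73). It was also kept for Grpel1 and Grpel2 (2.75 and 0.31) and for Timm8a1 and Timm8b (3.27 and 2.38).

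**Figure D3:**
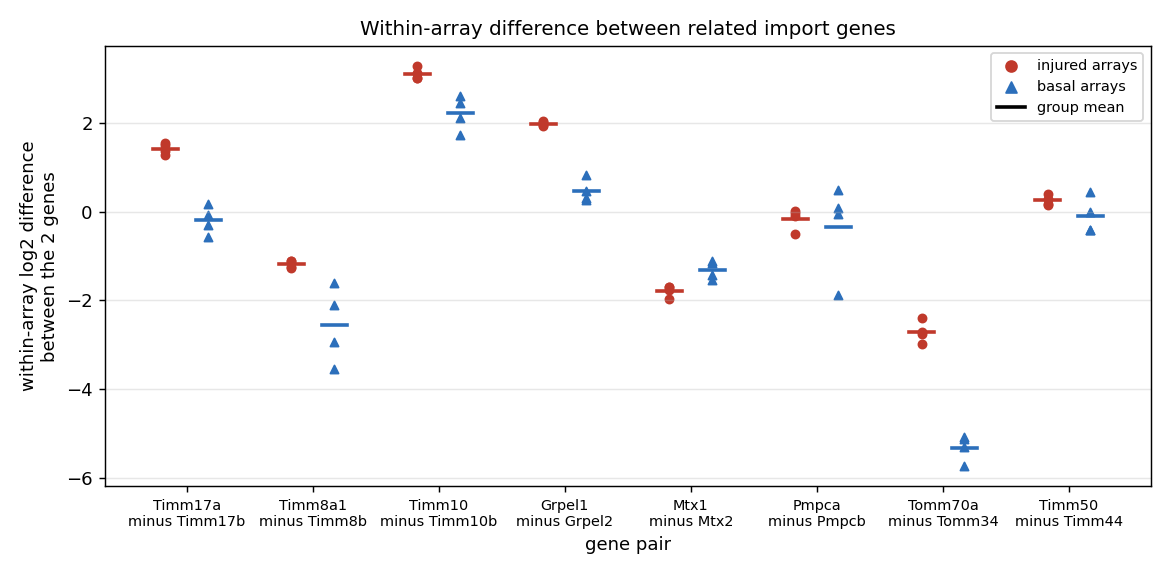
Within-array log2 difference between the genes of each of the 8 pairs tested, on 4 injured arrays (circles) and, to their right, 4 basal arrays (triangles), with group means as lines. What bears on the comparison is the step between the groups of a pair, which was 1.62 for Timm17a minus Timm17b and -0.47 for Mtx1 minus Mtx2, and not the height of a pair, which depends on the brightness of its probes. In the authors' deposited table Mtx1 rose more than Mtx2 (1.95 and 1.29).

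Several probes were present for 15 import genes, and more than 1 was tested for 11. In 10 of these 11 genes all tested probes were called higher, as in 24.6% of the 3427 genes with more than 1 tested probe. Over all 41 tested member probes, 37 were called higher, where 31.7% of all tested probes were, 1 was lower and 3 were not called. Sizes still varied by probe: Timm10 rose by 1.52 ± 0.18 on its brightest probe and 2.40 ± 0.40 on the other, and Timm8a1 by 2.75 ± 0.52 and 1.72 ± 0.49. The X-linked Timm17b, whose groups overlapped on the brightest probe, was separated on its other probe, which read 1.28, 1.33, 1.25 and 1.16 in injured cells, against 0.63, 0.50, 0.45 and 0.18 in basal cells. That probe rose by 0.81 ± 0.13 (adjusted p = 0.001 over all probes). Oxa1l was the gene with unequal calls. Its dimmer probe was above background on 4 injured arrays and on none of the basal ones, with means of -1.62 in injured cells and -3.20 in basal cells, and was at least 2.63-fold higher in injured cells (adjusted p = 0.00185). That bound sets the injured mean against the dimmest signal above background on each basal array, or the probe's own signal where higher. The other probes of Grpel1 and Tomm7 were not above background on any array. No member probe was saturated.

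**Figure D4:**
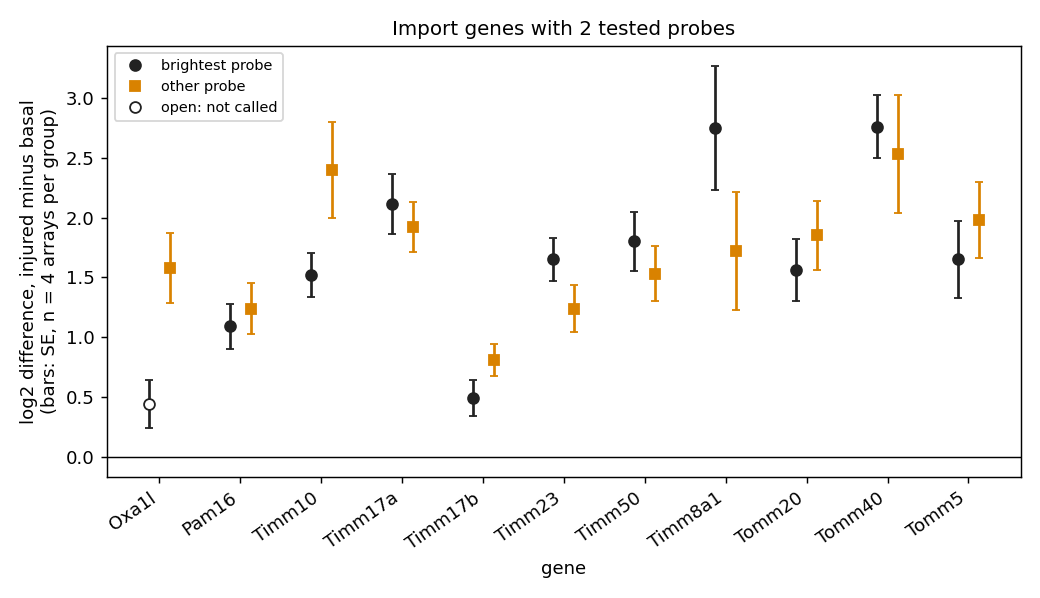
Log2 difference, injured minus basal, for the 11 import genes with more than 1 tested probe, with the brightest probe (circles) beside the other (squares) and SE bars (n = 4 arrays per group). All filled points were called higher, and the open circle, the brightest probe of Oxa1l at 0.44, was not, while its other probe stood at 1.58, a value that rests on basal signals not above background.

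The basal arrays differed more among themselves than the injured ones. The median SD over the 30 tested import genes was 0.15 on injured arrays and 0.49 on basal arrays, against 0.17 and 0.34 over all tested genes, and 29 of the 30 had the larger SD in basal cells, as did 79.5% of all tested genes. Taken as the median deviation from each gene's mean over 8 arrays, the import genes stood at 0.83, 0.90, 0.74 and 0.61 on injured 1 to 4, against -0.20, -0.62, -1.12 and -0.91 on basal 1 to 4. Basal 1 was thus the basal array closest to the injured level, and it was the highest basal array for 26 of the 30 genes, where it was so for 32.4% of all tested genes. Basal 3 was the lowest for 21 (27.0% of all), and injured 4 the lowest injured array for 21 (35.3% of all). Basal 1 and 2 were the basal arrays nearest the injured level, so leaving both out was bound to widen the difference. Without them 29 import genes were called higher and the median difference was 1.72, against 0.15 over all genes tested. The share of all genes called in that fit was not taken. Without basal 3 the median of the import genes was 1.40, and without basal 4 it was 1.45.

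**Figure D5:**
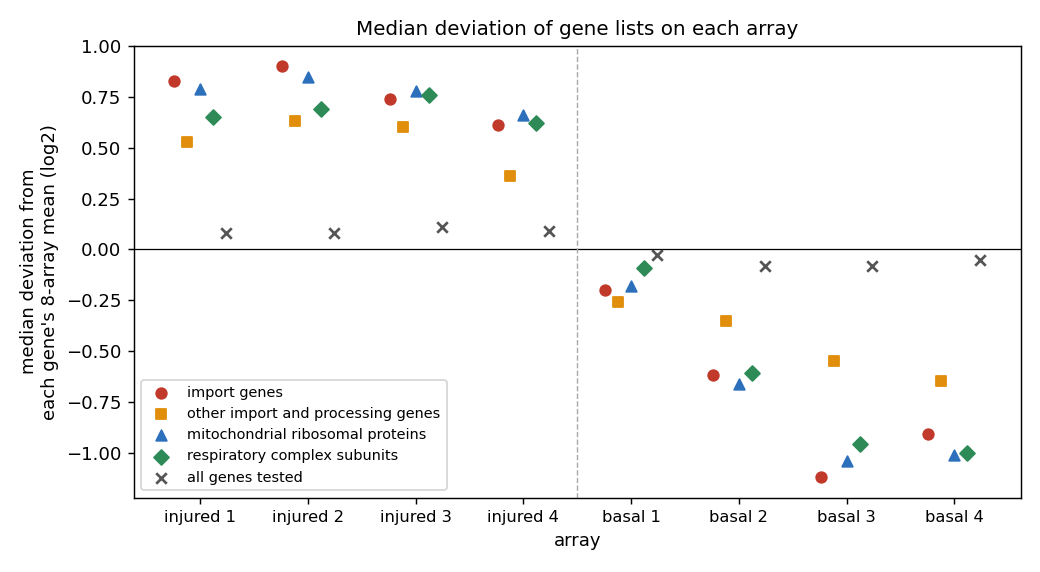
Median deviation of each gene list from the genes' own means over the 8 arrays, on the log2 scale, for injured arrays 1 to 4 and then basal arrays 1 to 4. The import genes (circles) lie at 0.61 to 0.90 on injured arrays and at -1.12 to -0.20 on basal arrays, close to the mitochondrial ribosomal and respiratory lists, while the median of all tested genes stays between -0.08 and 0.11.

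Markers of some other cell types moved with the groups, and those of others did not. On a linear scale relative to the 75th percentile, the summed signal of 4 fibro-adipogenic markers was 0.312 to 1.01 on injured arrays, against 15.7 to 30.2 on basal arrays, with 2 of 2 tested lower and Pdgfra not above background on any array. That of 4 pericyte and smooth muscle markers was 3.67 to 7.26 in injured cells, against 11 to 14.4 in basal cells, with 3 of 4 lower. That of 5 endothelial markers was 8.94 to 11.1 in injured cells, against 22.0 to 29.4 in basal cells, with 1 of 3 tested higher and 1 lower. Most of the injured sum came from Kdr, the higher gene (log2 3.02 to 3.32 on injured arrays). The largest part of the basal sum came from Tek, the lower gene (log2 3.13 to 4.33 on basal arrays). The endothelial gene Pecam1, which encodes the CD31 used in the sort, read 3.20 and 2.87 on basal 1 and 2, but -2.20 and -3.22 on basal 3 and 4 and -3.11 to -1.82 on injured arrays. The endothelial genes Cdh5 and Emcn were likewise above background on 2 basal arrays and on no injured array. Ly6a, a fibro-adipogenic marker that encodes the Sca1 used in the sort, read 1.34 and 0.07 on basal 1 and 2. It read -3.3 and -3.49 on basal 3 and 4 and -3.2 to -1.73 on injured arrays, and was not tested. The sum of 3 erythroid markers was 2.36 to 4.39 in injured cells, against 0.51 to 47.3 in basal cells. None of the 4 leukocyte markers tested was called by limma or had an unadjusted p under 0.05. The sum over 5 such markers was 456 to 546 in injured cells, against 429 to 495 in basal cells. It came nearly all from the probe of Itgam, which encodes the CD11b used in the sort. That probe read 8.74 to 9.09 over the arrays, and the reason was not tested. Of 6 satellite cell and myogenic markers, 3 were higher and 3 lower, Pax7 among the lower. The part of these other cells in the import gene values was not tested. The counts without basal 1 and 2 given above cannot test it, since these arrays also lay nearest the injured level.

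The import genes did not stand alone among mitochondrial genes. Of 28 tested genes with other roles in import, folding and membrane organisation, 20 were higher and 1 lower, with a median of 0.97. The largest rises were those of Dnajc15, a J protein of the inner membrane (2.52 ± 0.29, adjusted p = 0.000176), the outer membrane porins Vdac3 (2.49 ± 0.23, adjusted p = 5.73e-05) and Vdac1 (2.41 ± 0.29, adjusted p = 2e-04), and Apoo, an X-linked MICOS subunit (2.33 ± 0.27, adjusted p = 0.000159). Dnajc19, another J protein of the inner membrane, was lower on its brightest probe (-0.68 ± 0.13, adjusted p = 0.00191), while its second probe was higher (2.17 ± 0.33, adjusted p = 0.000682 over all probes), so that no direction can be given for it. Chosen after their values were seen, Hspa9, the Hsp70 of the motor, rose by 1.68 ± 0.14 (adjusted p = 4.1e-05), while the inner membrane peptidase genes Immp1l and Immp2l were not called (0.04 ± 0.13 and -0.12 ± 0.25). Of 76 mitochondrial ribosomal protein genes, 70 were higher and 1 lower (median 1.57), and of 91 genes for subunits of the respiratory complexes, 82 were higher and 2 lower (median 1.38). The median of the import genes, 1.54, lay between these medians, and no test was made between the lists.

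Some import genes carry older names on the array and fell outside the rule. Timm10b, printed as Fxc1, rose by 0.64 ± 0.13 (adjusted p = 0.0024) and by 1.93 ± 0.35 on its other probe. Timm21, a subunit that links TIM23 to the respiratory chain, rose by 0.57 ± 0.15 (adjusted p = 0.0114). Timmdc1, an assembly factor of respiratory complex I, gave -0.34 ± 0.11 on its brightest probe (adjusted p = 0.0244) and 0.62 ± 0.33 on another, which was not called (adjusted p = 0.143). Timm29, a subunit of TIM22, was not above background on any array.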

How the data were processed

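RNA of satellite cells was measured on 8 single-colour arrays. The scanner files deposited by the authors hold spot signals in intensity units, produced by version 10.7.3.1 of Agilent Feature Extraction with background subtracted, per the file headers. The authors' deposited table holds normalized values on a log2 scale, read as such from the values; the submitters' processing notes name limma, and its exact steps are not stated in the labels. The columns of that table share a median (8.02). They correlate with their own arrays at r = 0.84 to 0.939 for the injured arrays, but at 0.952, 0.757, 0.67 and 0.563 for basal 1 to 4. The table served as an alternative with that limit, which falls on the basal group.

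The processed signal of non-control spots was put on a log2 scale, less each array's 75th percentile. The 1119 spots marked as uneven or population outliers were dropped, and repeat spots of a probe were averaged. Probes were named from the GRCm38.p6 gene table by accession (26309), current symbol (2042) or synonym (354), or kept the array's name (547). The brightest probe stood for a gene. The comparison used limma 3.58.1 (R 4.3.3, data.table package 1.17.8), with 6 residual and 2.55 prior degrees of freedom; 8807 genes had an unadjusted p under 0.05. Full values per array were given for the 5 largest rises, members called lower, the TOM receptors and pore, TIM23 subunits and small TIMs, and for some other members. Replicate numbers did not pair the arrays (correlations of same-numbered deviations -0.00173 to 0.0936). Members, lists and tests were chosen with earlier results of these data known.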

Additional observations from a re-analysis of the deposited data

Results flagged for a closer look

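Among the 82 groups of 4 arrays checked, for the import genes and the pairs, 3 held an array whose gap to its nearest neighbour took up more than 0.829 of the group's range. Chance flags about 1 group in 20. Chchd4 read -2.37 on basal 3, with the nearest basal array at -1.34. Tomm70a read -2.01 on basal 3, with the nearest at -1.38. Tomm7 read 5.11 on injured 4, with the nearest injured array at 5.42. Basal 3 and injured 4 were also the lowest arrays of their groups for 21 of the 30 tested import genes each.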

How the results depend on the processing

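Over 21 alternatives and 30 genes, 589 of 630 gene values kept their direction and their side of the threshold, 29 lost their call, 11 gained one and 1 turned, that of Tomm34 in the authors' deposited table (0.73). For 9 genes direction and call were the same under all of these alternatives, though sizes moved (Grpel1 0.99 to 2.75, Tomm40 1.45 to 3.19). The lowest Grpel1 value came from the mean of its probes, of which the dimmer was not above background on any array. The number of import genes called higher was 24 to 28 when 1 array was left out, with 1 called lower each time and a median difference of 1.40 to 1.66. It was 22 to 28 under the other alternatives with all arrays, and 29 without basal 1 and 2 together. It was 10, with 0 lower, when injured 1 was the sole injured array, whose spread is then assumed to be that of the basal arrays, and the median was 1.58. The median was 1.1 with normexp and quantile normalization. The number called lower was 0 in the authors' deposited table and 2 without the filter on dim probes, the second being Timm8a2 (-0.99, adjusted p = 0.0398), which no array showed above background. The median of all genes, 0.17, was 0.06 with normexp and quantile normalization and 0.47 in the authors' deposited table. With the replicate number as a block, 26 import genes were higher, the median was 1.54 and no call of an import gene changed; the numbers do not pair the arrays, and 1 of the 4 injured arrays correlated best with its own number.

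Among the pairs, the mean of all probes gave 0.85 for Timm8a1 minus Timm8b, 0.67 for Timm10 minus Timm10b and 0.47 for Grpel1 minus Grpel2, none past the threshold. For Grpel1 and Grpel2 that mean takes in probes too dim to be tested. Leaving out 1 array at a time gave 1.03 to 1.68 for Timm8a1 minus Timm8b and -0.55 to -0.41 for Mtx1 minus Mtx2, with an exact p of 0.0571 whichever injured array was left out. It gave 0.72 to 1.01 for Timm10 minus Timm10b (exact p = 0.0571 without injured 2 or 3). Pmpca minus Pmpcb ran between -0.33, without basal 1 (exact p = 0.143), and 0.46, without basal 2. Timm50 minus Timm44 ran between 0.25 and 0.54, the highest without basal 1 (exact p = 0.0286). A slide block was planned and could not be fitted, since each slide holds 1 group. The causes were not tested. Signal over background limits Tomm20l, Tomm40l and Timm8a2.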
